A study of Mus musculus with 14 samples.

Results

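DNA topoisomerases are enzymes that cut, pass and reseal DNA strands, and 5 of their genes are described here in single mouse haematopoietic stem cells (HSCs) of a study on Phf19, a Polycomb-associated protein. The genes are Top1, Top2b, Top1mt, Top3a and Top3b, 5 of 25832 gene IDs in the count tables. They were chosen by the fitted difference of Top1, which was among the genes called lower in Phf19 KO cells, and the other 4 because they belong to the same enzyme family. The difference of Top1 between KO and WT cells is therefore what put the family on view, and it is given below as a description without a test. Top2a, the remaining gene of this kind with enough counts, was not chosen and is shown beside them.

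The cells were bone marrow HSCs, sorted as CD150-positive and CD48-negative after depletion of lineage-positive cells, and profiled by MARS-Seq, a plate-based method that counts RNA molecules by unique molecular identifiers. The 4 plates are named 350W, 351W, 352W and 353W, and each held 96 wells of cells named WT and 96 wells of cells named KO. KO stands for loss of Phf19 in the study's labels, and the controls of its other assays carried floxed Phf19. The plate labels give no genotype, no age and no deleting agent, and do not say whether the WT cells were those floxed controls, so genotype rests on the cell names alone. WT cells always had well numbers 1 to 96 and KO cells 97 to 192, so genotype and well position cannot be told apart. Nothing says that plates came from separate animals, and the spread between plates may be technical.

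Of 768 wells, 716 with at least 500 counts were kept, 74 to 96 per plate and genotype, and 52 shallower wells, 3 of WT and 49 of KO cells, were dropped. Summed totals ran from 220821 to 510791 counts. KO cells were shallower in 4 of 4 plates, with a median depth per cell of 0.725 to 0.896 times that of WT cells. Phf19 itself had 0 to 5 counts per plate and genotype (1, 0, 0 and 5 in WT cells, 0, 2, 1 and 0 in KO cells of 350W to 353W), and a count at the end of the transcript need not report a deletion elsewhere in the gene, so it does not check the labels. All 10 HSC marker genes looked at had counts, and their summed level was 1292 to 1667 CPM (a gene's counts scaled to the same total in every sum) in WT and 1318 to 1479 CPM in KO cells. B cell markers were uneven: their summed level was at most 118.4 CPM in 350W and 351W, but 7180 CPM in WT and 4818 CPM in KO cells of 352W, and 1607 CPM in WT and 541.4 CPM in KO cells of 353W. They were lower in KO cells in 3 of 4 plates. Summed markers of monocytes and dendritic cells (324.2 to 532.5 CPM in WT, 276.2 to 415.9 CPM in KO) and of endothelial and stromal cells (47.0 to 78.7 CPM in WT, 34.0 to 58.9 CPM in KO) were lower in KO cells in 4 of 4 plates. The HSC sum and the neutrophil sum were lower in KO in 3 of 4 plates. Megakaryocyte and erythroid sums were lower in KO in 2 plates, and the T and NK cell sum in 1. Megakaryocyte markers were uneven as well, at 631.6 CPM in WT and 536.7 CPM in KO cells of 350W. In 352W they were at 18.9 CPM in WT and 49.8 CPM in KO cells. The part of any of these markers in the Top1 difference was not tested.

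Topoisomerases relieve the twisting that builds up when the double helix is opened. TOP1 nicks a single strand, lets the helix turn and reseals it, mainly ahead of and behind transcribing RNA polymerase II, and it is the target of camptothecin. TOP1MT does the same in mitochondria. TOP2A and TOP2B cut both strands and pass another duplex through the break. TOP2A is made by dividing cells, where it separates chromosomes, while TOP2B is also present in resting cells and acts at promoters and loop anchors. TOP3A, with the BLM helicase, resolves linked DNA strands, and TOP3B, with TDRD3, acts on DNA and RNA. Most HSCs are out of the cell cycle and divide rarely.

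To show what lies upstream of the genes whose patterns are compared below, the 250 bases before the RefSeq start site of Top1, Top2b and Top2a are printed 5′ to 3′ on the strand of the gene (build GRCm38.p6). RefSeq promoters were at hand for 3 of the 5 chosen genes, those of Top1, Top2b and Top3b. Capitals mark a GC box (GGGCGG, or its reverse complement CCGCCC) or a CCAAT box (CCAAT, or ATTGG), searched on both strands. The windows lie at chr2:160645647-160645896 on the plus strand for Top1, chr14:16364956-16365205 on the plus strand for Top2b and chr11:99024190-99024439 on the minus strand for Top2a. The span of the Top2a gene reaches to chr11:99024199, so the start site used for Top2a lies inside that span and the last bases printed overlap it.
Top1: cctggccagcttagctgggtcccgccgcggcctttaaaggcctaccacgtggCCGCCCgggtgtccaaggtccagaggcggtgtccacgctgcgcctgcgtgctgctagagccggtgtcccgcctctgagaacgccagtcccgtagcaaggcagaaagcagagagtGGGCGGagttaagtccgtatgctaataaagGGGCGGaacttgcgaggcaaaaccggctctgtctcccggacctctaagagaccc
Top2b: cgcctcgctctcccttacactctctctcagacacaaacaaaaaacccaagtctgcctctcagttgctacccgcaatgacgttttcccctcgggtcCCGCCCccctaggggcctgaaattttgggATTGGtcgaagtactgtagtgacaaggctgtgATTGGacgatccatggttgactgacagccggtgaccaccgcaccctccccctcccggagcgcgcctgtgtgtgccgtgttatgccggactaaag
Top2a: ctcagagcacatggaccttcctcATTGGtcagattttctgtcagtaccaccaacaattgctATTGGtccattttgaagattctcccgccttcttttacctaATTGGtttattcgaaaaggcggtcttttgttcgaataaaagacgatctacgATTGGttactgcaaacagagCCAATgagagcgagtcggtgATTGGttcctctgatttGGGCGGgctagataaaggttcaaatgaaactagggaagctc

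The Top1 window holds 3 GC boxes, 198, 84 and 54 bases before the start, no CCAAT box, and 20 CG dinucleotides. That of Top2b holds 1 GC box, 2 CCAAT boxes and 15 CG dinucleotides, and that of Top2a holds 1 GC box, 6 CCAAT boxes and 9 CG dinucleotides. The window of Top3b, which is not printed, holds no GC box, 1 CCAAT box and 7 CG dinucleotides. Of 32851 windows of the same length, 32.7% hold a GC box and 33.8% a CCAAT box, and the median number of CG dinucleotides is 6. A match of letters is a description and not a binding site. Top1 itself spans 76.9 kb at chr2:160645897-160722764 and Top2b 65.6 kb at chr14:16365206-16430787.

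The first question was how Top1 stood in each plate. In each of the 4 plates Top1 stood lower in KO cells, at 0.315 to 0.497 times the WT level. In WT cells it had 34, 28, 63 and 48 counts in 350W, 351W, 352W and 353W, which is 109, 71.0, 198.3 and 94.0 CPM. KO cells had 12, 7, 16 and 14 counts, which is 54.1, 22.4, 72.5 and 36.6 CPM. Across plates the groups touch: the highest KO value, in 352W, lies just above the lowest WT value, in 351W, and 352W is the highest plate in both genotypes. It is also the plate with most B cell marker counts; without wells of over 100 immunoglobulin counts the fitted log2 fold change of Top1 was -1.33, against -1.35 with all cells, and the call described below was lost (adjusted p 0.0853, edgeR). Within plates, the ratio of KO to WT was 0.497 (exact 95% interval 0.234 to 0.983) in 350W, 0.315 (0.116 to 0.738) in 351W, 0.365 (0.197 to 0.640) in 352W and 0.390 (0.198 to 0.719) in 353W. These intervals cover counting error only. Pooled over plates, 173 counts in WT and 49 in KO cells gave 112.7 and 43.1 CPM, a ratio of 0.382 (0.272 to 0.528).

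**Figure D1:**
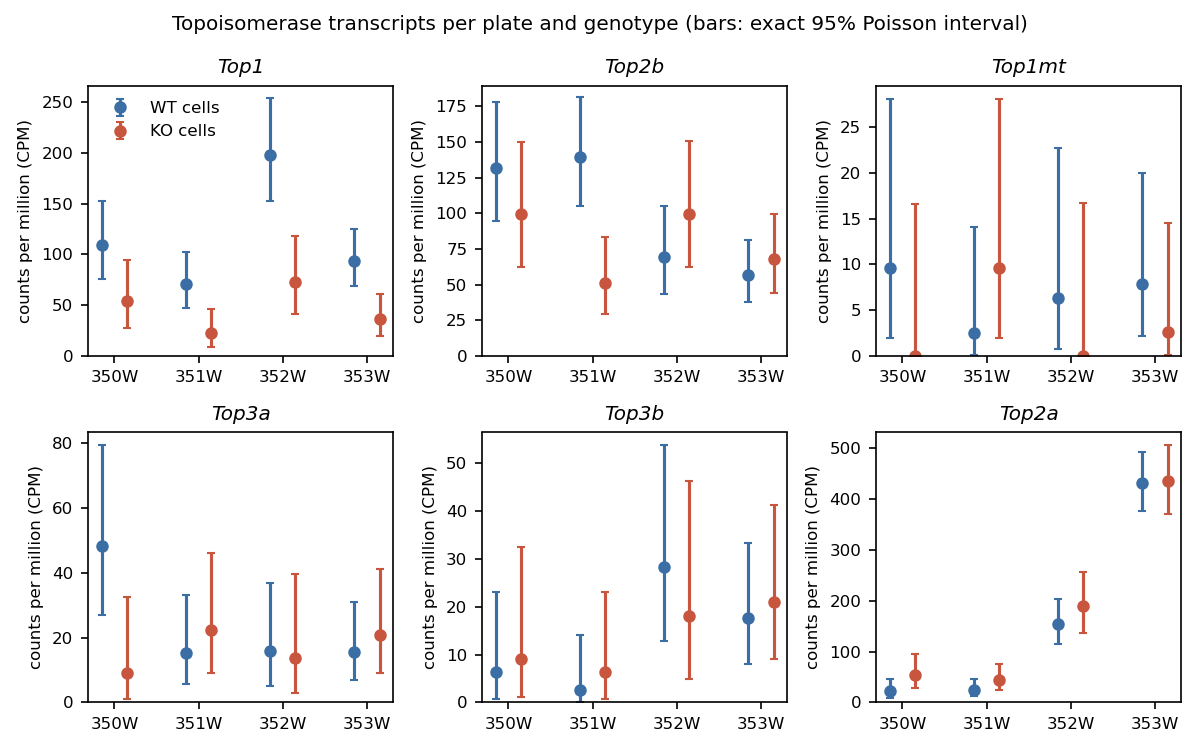
CPM (vertical axes, each gene on its own scale) for the 5 chosen topoisomerase genes and Top2a in WT (blue) and KO (red) cells of the 4 plates; points are summed counts and bars exact 95% Poisson intervals. Top1 is lower in KO in each plate, Top2b is lower in 350W and 351W and higher in 352W and 353W, and Top2a reaches 430.7 and 434.2 CPM in 353W.

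In the fit across 6541 genes (edgeR, plate as a block), Top1 had a log2 fold change of -1.35 with a standard error (SE) of 0.243, KO against WT, and stood eighth from the lowest. Its adjusted p of 0.0425 chose it and is given for that reason alone. The call was narrow: Gm10288, a predicted gene, was just inside the threshold of 0.05 at 0.0444, and Nim1k, a kinase gene, just outside at 0.1035. In all, 6 of 6541 genes were called in either direction (0.0917%) and 4 of them lower in KO (0.0612%), so 2 of the 5 chosen genes had enough counts to be fitted, Top1 and Top2b, and 1 was called. A fitted change of -1 or lower was seen in 29 genes (0.443%), and 507 genes (7.75%) had a lower CPM in KO in all 4 plates as Top1 did. Top1 was called under 5 of 13 other settings of the fit. The call was lost in each fit without a plate, where the adjusted p ran from 0.0853 to 0.523 and the log2 fold change from -1.45 to -1.28.

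Fewer KO cells had any Top1 count. The share of WT cells with a count was 20.0%, 16.7%, 26.3% and 23.2% in 350W to 353W, and the share of KO cells 9.78%, 6.74%, 16.2% and 12.5%. The highest KO share, 16.2% in 352W, was just below the lowest WT share, 16.7% in 351W. How many other genes have shares that part in this way was not counted, and Top1 was chosen for its lower level in KO. Pooled, 82 of 381 WT cells (21.5%, exact binomial 95% interval 17.5 to 26.0%) and 37 of 335 KO cells (11.04%, 7.90 to 14.9%) had a count. Since KO cells were shallower, each cell was also thinned to 1000 counts, which left out 4 WT and 18 KO cells; the shares were then 9.28% and 2.84%, and at 1500 counts 12.2% and 4.56%. The thinned share was lower in KO in each plate, at 10.6%, 6.32%, 12.6% and 7.53% of WT and 4.44%, 1.20%, 4.41% and 1.32% of KO cells. Those KO shares rest on 4, 1, 3 and 1 positive cells. For scale, genes that HSCs should lack were counted in few cells: Cd3e, of the T cell receptor complex, in 0.262% of WT and 0% of KO cells (0 of 335, which allows a share of up to 0.896%), Col1a1, a collagen of stromal cells, in 1.05% and 1.19%, and Cdh5, an endothelial cadherin, in 2.62% and 1.19%.

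**Figure D2:**
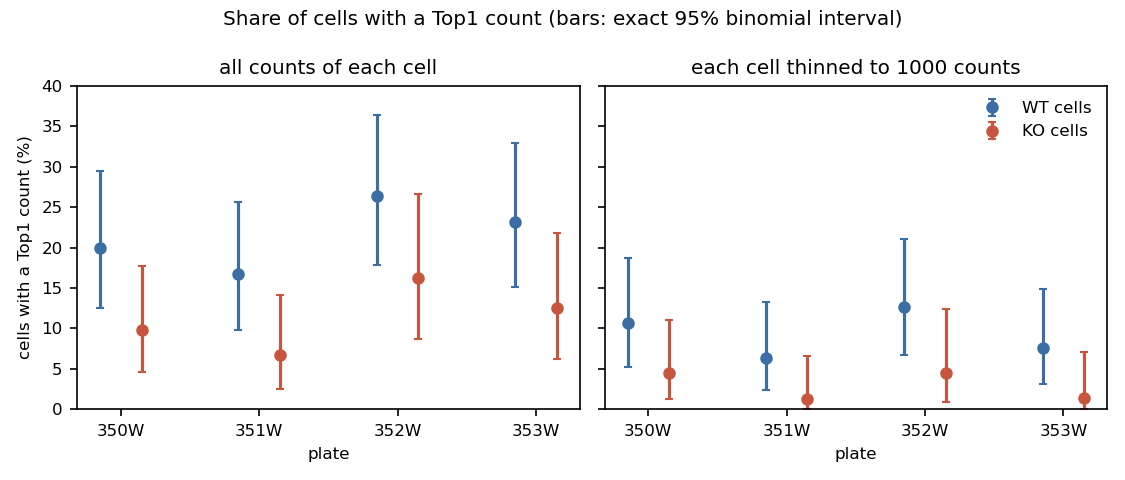
Percent of cells with at least 1 Top1 count (vertical axis) by plate for WT (blue) and KO (red) cells, with exact 95% binomial intervals; the left panel uses all counts and the right panel cells thinned to 1000 counts. KO lies below WT in each plate in both panels, from 6.74 to 16.2% against 16.7 to 26.3% with all counts.

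Among cells with a count, with plates pooled and without thinning, KO cells held fewer Top1 counts each. These are the same counts that chose Top1, so this describes the difference again and adds no support to it. Of the 82 positive WT cells, 43 had 1 count, 16 had 2 and 23 had 3 or more, with a mean of 2.11 and a highest of 9. Of the 37 positive KO cells, 30 had 1 count, 4 had 2 and 3 had 3 or more, with a mean of 1.32 and a highest of 4. Thus 39 of 82 positive WT cells (47.6%, 36.4 to 58.9%) and 7 of 37 positive KO cells (18.9%, 7.96 to 35.2%) had 2 counts or more. The WT level did not rest on a few wells: the 3 highest cells held 12.1% of Top1 counts in WT and 22.4% in KO. Positive cells were the deeper ones in 7 of the 8 sets of cells, the KO cells of 350W being the exception, and pooled medians were 3817.5 against 3535 counts per cell in WT and 4266 against 2770 in KO. Without the highest well of each plate and genotype, the median Top1 level over plates was 87.0 CPM in WT and 32.8 CPM in KO, against 101.5 and 45.4 CPM with it.

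**Figure D3:**
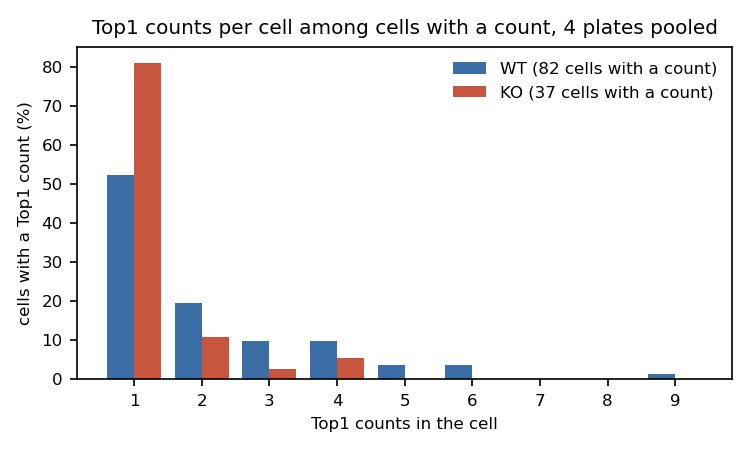
Percent of the cells with a Top1 count (vertical axis) that held 1 to 9 counts (horizontal axis), 4 plates pooled, for 82 WT (blue) and 37 KO (red) cells. Single counts make up 52.4% of positive WT cells and 81.1% of positive KO cells, and the highest KO cell held 4.

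The next question was whether Top1 counts came back in the same wells of different plates. In WT, of 93 wells kept in all 4 plates, Top1 had a count in no plate for 39, in 1 plate for 37, in 2 plates for 9, in 3 plates for 8 and in all 4 plates for 0. The 8 wells positive in 3 plates were 1, 11, 24, 25, 45, 51, 78 and 93, with 3 to 11 counts each over the plates. Well 45 had most, with 6 counts in 350W, 0 in 351W, 4 in 352W and 1 in 353W. In KO, of 69 wells kept in all 4 plates, Top1 was counted in no plate for 40, in 1 plate for 26, in 2 plates for 3 and in 3 or 4 plates for 0. Top2b, with a like share of positive WT cells, had 18 WT wells in 2 plates and 2 in 3 plates, and also none in all 4. How many wells would be positive in 3 plates if plates were unrelated was not worked out.

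Across wells, Top1 counts of a pair of plates had a Pearson correlation of -0.066 to 0.172 in WT (6 pairs of plates, 94 to 95 wells each, median 0.026) and of -0.101 to -0.017 in KO (70 to 86 wells, median -0.056). Spearman medians were 0.102 and -0.075. Total counts per well had a median correlation of 0.090 in WT and 0.169 in KO, so that in KO depth and Top1 differed in sign. Scaled to CPM per well, the WT median was 0.136 and the highest pair 0.447. Scored as a count or no count, the WT median was 0.112, with 5 of 6 pairs above 0, and with cells thinned to 1000 counts it was -0.051, with 1 of 6 pairs above 0. The sign of the WT median thus depended on the measure, and weak correlations in counts this sparse are no finding in either direction.

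**Figure D4:**
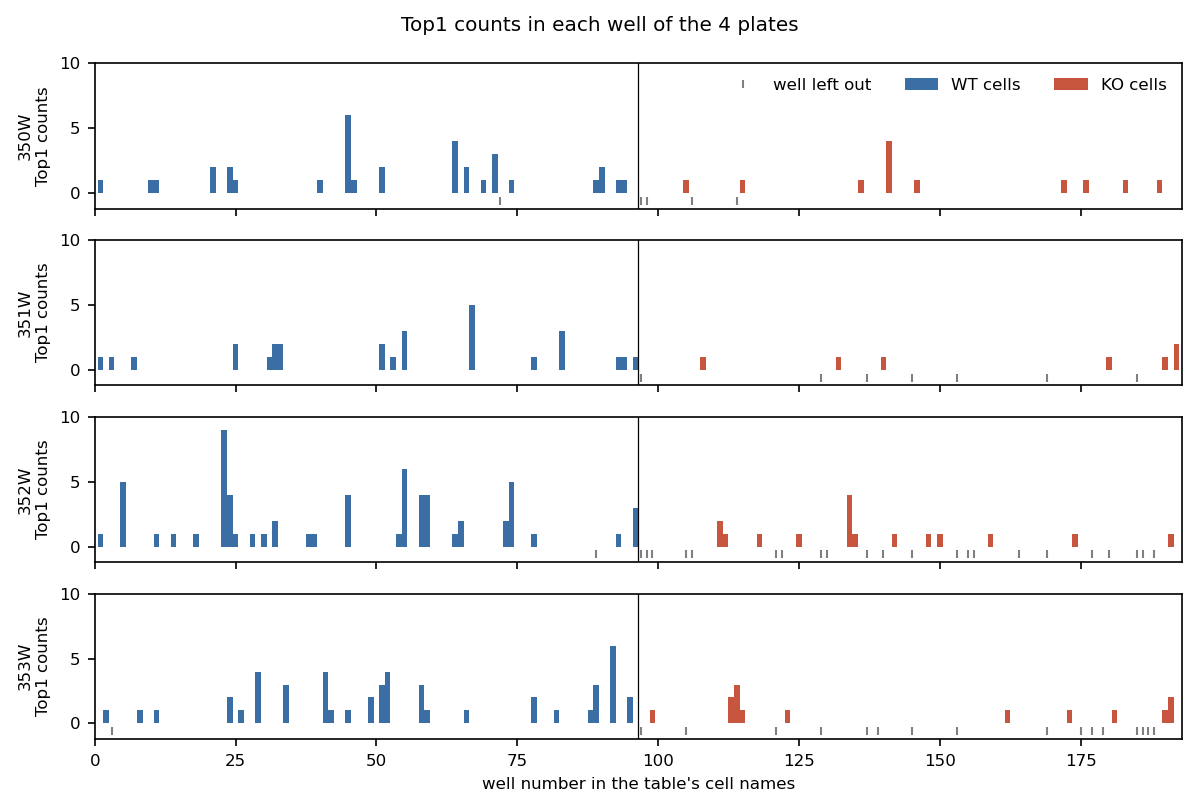
Top1 counts (vertical axis) in each well by well number (horizontal axis) for the 4 plates, WT wells 1 to 96 in blue and KO wells 97 to 192 in red, with grey ticks under wells that were left out. Positive wells are scattered over each WT range, and the highest, well 23 of 352W with 9 counts, had no count in the other 3 plates.

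Along the plate, Top1 was set out in blocks of 24 wells, pooled over plates. WT blocks stood at 97.8, 101.3, 141.2 and 110.5 CPM in well order and KO blocks at 45.5, 54.5, 17.7 and 54.9 CPM. In these pooled values the lowest WT block was above the highest KO block, and there was no steady slope within either genotype. Plate by plate the blocks separated only in 350W, and there narrowly, at 85.2 CPM (lowest WT) against 83.2 CPM (highest KO). The lowest WT and highest KO blocks were 32.9 and 52.5 CPM in 351W, 125.4 and 144.1 CPM in 352W and 38.9 and 58.25 CPM in 353W. The blocks divide the same counts that chose Top1, so they describe that difference again. Where the genotypes meet, wells 73 to 96 had 110.5 CPM (exact 95% Poisson interval 78.9 to 150.4) and wells 97 to 120 had 45.5 CPM (24.9 to 76.4). A difference between the plate's 2 well ranges that began at well 97 would look the same as a genotype difference.

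The highest wells held little else of the family. In WT these were well 23 of 352W with 9 Top1 counts of 5260 in all, well 45 of 350W with 6 of 3036 and well 55 of 352W with 6 of 3362. In KO they were well 141 of 350W with 4 counts of 1755, well 134 of 352W with 4 of 2939 and well 114 of 353W with 3 of 7016. Among these 6 cells, well 45 had 4 Top2b counts and well 114 had 2 Top2a counts, and the other topoisomerase genes were at 0. The wells left out for low depth held 1 Top1 count and 1 Top3a count among 16463 counts. Both were in KO wells, which held 15372 of those counts. Counts this few do not tell whether Top1 stood at another level in the wells left out. With no filter on cells the fitted log2 fold change of Top1 was -1.34 and its call was lost (adjusted p 0.0501, edgeR).

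Top2b, the type II enzyme that is also present in resting cells, did not follow Top1 from plate to plate. In WT cells it had 41, 55, 22 and 29 counts in 350W to 353W (131.5, 139.6, 69.2 and 56.8 CPM) and in KO cells 22, 16, 22 and 26 counts (99.2, 51.2, 99.6 and 68.0 CPM). The groups overlap over most of their range. KO was lower in 350W and 351W and higher in 352W and 353W, with ratios of 0.755 (0.428 to 1.30), 0.367 (0.196 to 0.649), 1.44 (0.760 to 2.72) and 1.20 (0.678 to 2.11). The pooled ratio was 0.789 (0.598 to 1.04). In the fit its log2 fold change was -0.30 with an SE of 0.281, so the SE nearly reaches 0, and without plate 351W it was 0.11. None of 13 other settings called it. A Top2b count was seen in 22.05% of WT and 17.0% of KO cells.

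Top1 and Top2b were the most abundant of the chosen genes and close to each other in WT. Because MARS-Seq counts a molecule by its end, a CPM does not scale with transcript length, and levels of genes can be set side by side. WT medians over plates were 101.5 CPM for Top1, 100.4 for Top2b, 15.7 for Top3a, 12.0 for Top3b and 7.06 for Top1mt. KO medians were 83.6 CPM for Top2b, 45.4 for Top1, 17.3 for Top3a, 13.6 for Top3b and 1.31 for Top1mt. The plate ranges of Top1 and Top2b overlap in both genotypes, as do those of Top3a and Top3b.

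The 3 rarer genes had too few counts for the fit, and with plates pooled they were seen in 1.57 to 8.40% of WT and 1.19 to 5.37% of KO cells. Top3a, the partner of BLM, had 15, 6, 5 and 8 counts in WT cells of 350W to 353W and 2, 7, 3 and 8 in KO cells. KO was lower in 350W and 352W and higher in 351W and 353W, and the pooled ratio was 0.794 (0.433 to 1.42). Plate 350W decides that ratio: its WT cells had 48.1 CPM against 15.2 to 15.7 CPM in the other plates, and without it the log2 ratio turned from -0.33 to 0.34. Top3b, the partner of TDRD3, had 2, 1, 9 and 9 counts in WT and 2, 2, 4 and 8 in KO, a pooled ratio of 1.03 (0.501 to 2.07). Top1mt, the mitochondrial enzyme, had 3, 1, 2 and 4 counts in WT and 0, 3, 0 and 1 in KO, a pooled ratio of 0.540 (0.124 to 1.87) that rests on 14 counts. With pooled intervals this wide, a KO level below that of WT was not detectable at this depth for any of the 3, nor was its absence.

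Top2a, the type II enzyme of dividing cells, varied more between plates than between genotypes. It had 7, 10, 49 and 220 counts in WT cells of 350W to 353W (22.4, 25.4, 154.2 and 430.7 CPM) and 12, 14, 42 and 166 in KO cells (54.1, 44.8, 190.2 and 434.2 CPM). In 353W, 81.1% of WT and 77.5% of KO cells had a count, against 5.26% and 6.52% in 350W. KO was higher in 4 of 4 plates, by little in 353W, and the fit gave a log2 fold change of 0.27 with an SE of 0.191 and an adjusted p of 0.868 (edgeR). Spo11 and Top6bl, which make the breaks of meiosis, were at 0 to 3 and 0 to 5 counts per plate and genotype.

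Within cells, the shares of cells with Top2b overlapped between cells with and without Top1. Thinned to 1000 counts, 4 of 35 Top1-positive WT cells (11.4%, 3.203 to 26.7%) and 29 of 342 Top1-negative WT cells (8.48%, 5.75 to 12.0%) had a Top2b count. With all counts the shares were 23.2% and 21.7% in WT, and 27.0% and 15.8% in KO, where positive cells were also much deeper. Top3a shares with all counts were 8.54% and 8.36% in WT, and 16.2% (6 of 37) and 4.03% (12 of 298) in KO. Thinned to 1000 counts, Top3a was in 1 of 9 Top1-positive KO cells (0.281 to 48.2%). Among Top1-negative KO cells it was in 2 of 308 (0.0787 to 2.33%). Top3b shares with all counts were 2.44% and 3.34% in WT, and 8.11% and 4.03% in KO. Bach2, a transcription factor of lymphoid cells and the gene with the lowest adjusted p of the contrast, was counted in 36.6% of Top1-positive and 40.8% of Top1-negative WT cells, and thinned to 1000 counts in 4 of 35 (11.4%, 3.203 to 26.7%) and 74 of 342 (21.6%, 17.4 to 26.4%). The thinned intervals overlap.

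Genes that work with topoisomerases were looked up in 6 lists of 62 genes, other topoisomerase-like genes included. Of these, 35 had enough counts and 0 were called in either direction by edgeR; over all genes tested 6 of 6541 were called, so 0 of 35 is near the background. An unadjusted p under 0.05 was seen for 3 of the 35 and for 398 of the 6541. The median log2 fold change of the 35 was -0.05 against -0.00 over all genes tested. The lowest was Supt16, a histone chaperone subunit, at -0.54 (SE 0.422), and the highest Supt4a, an elongation factor, at 0.60 (SE 0.316). Of 14 genes that clear or repair trapped TOP1, 3 were fitted: Parp1, a sensor of strand breaks, at -0.11 (SE 0.336), Aptx, which removes abortive ligation ends, at -0.08 (SE 0.243), and Polb, a repair polymerase, at -0.05 (SE 0.349). Of 8 TOP3 partners, the helicase genes Blm, at 0.40 (SE 0.308), and Recql5, at -0.03 (SE 0.371), were fitted. Blm, like Top2a, was highest in 353W, at 135.1 CPM in WT and 136.0 CPM in KO cells.

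Chromosome structure genes did not move in 1 direction, with 5 of 11 fitted below 0. Ctcf, which marks loop anchors where TOP2B acts, was lower in KO in 4 of 4 plates, at 298.2, 192.8, 226.6 and 231.0 CPM in WT and 243.6, 150.3, 163.0 and 156.9 CPM in KO cells of 350W to 353W. Its log2 fold change was -0.42 with an SE of 0.142 and an adjusted p of 0.662 (edgeR), so it did not pass. Hmgb2, a DNA-bending protein of dividing cells, was higher in KO in 4 of 4 plates (0.35, SE 0.165, adjusted p 0.800 by edgeR), and Smc3, of cohesin, stood at 0.05 (SE 0.210). All 15 elongation genes were fitted, with a median of -0.13 and 9 below 0. Among them Ncl, the nucleolar protein nucleolin, was at -0.13 (SE 0.094), Srsf1, a splicing factor, at -0.26 (SE 0.192) and Sfpq, an RNA-binding protein, at 0.14 (SE 0.188). Of 9 genes of mitochondrial DNA maintenance, where TOP1MT acts, 3 were fitted: Ssbp1, a single-strand binding protein, at -0.22 (SE 0.211), Tfam, which packages that DNA, at 0.03 (SE 0.395), and Mgme1, a nuclease, at 0.05 (SE 0.312).

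**Figure D5:**
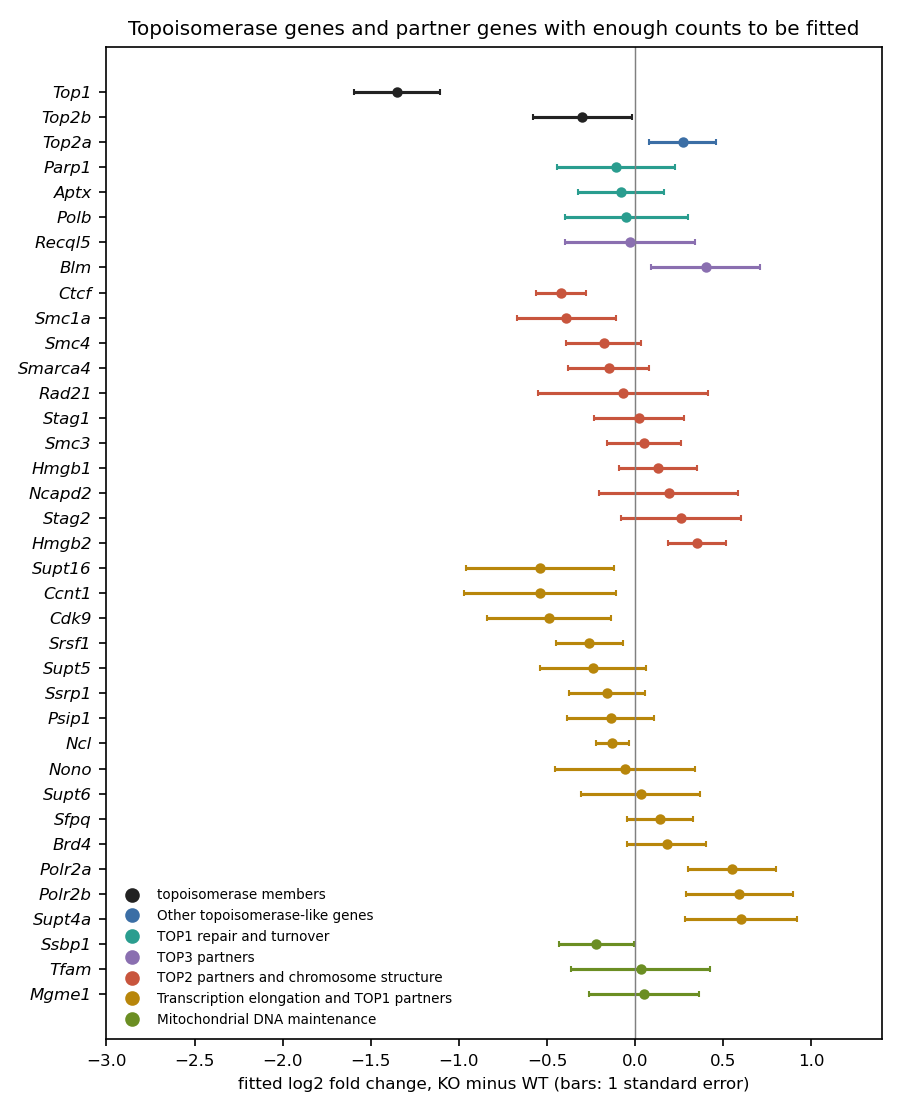
Fitted log2 fold change, KO minus WT (horizontal axis), with bars of 1 SE, for Top1, Top2b and the 35 partner genes that could be fitted, coloured by list. Top1, which was chosen on this contrast, is at -1.35, so its distance from the other genes follows from the choice. The partner genes lie between -0.54 and 0.60, and 0 of 35 were called.

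The other genes called in the same contrast were of other kinds. Bach2 had a log2 fold change of -3.35, the immunoglobulin genes Igkv14-126 and Ighm -2.09 and -1.10, and Rpl30, a ribosomal protein gene, and Gm10288 0.76 and 0.60. An earlier analysis of these data called the same 5 genes, so this repeats it. The immunoglobulin genes rest on 352W and 353W, where nearly all of their counts were.

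Genes with a pattern most like that of Top1 were sought by Pearson correlation of log CPM over the 8 sums of plate and genotype, among 6540 genes. The 5 highest were Ptprg, a receptor tyrosine phosphatase, at 0.968, Psd3 at 0.948, Nim1k at 0.940, Pts, an enzyme of tetrahydrobiopterin synthesis, at 0.940 and Ostc, an oligosaccharyltransferase subunit, at 0.939. Ptprg, the closest, had 118.6, 96.4, 141.6 and 97.9 CPM in WT and 85.7, 70.4, 86.0 and 70.6 CPM in KO cells of 350W to 353W. Like Top1 it was highest in 352W in each genotype, which did not hold for Nim1k and Pts, whose KO cells were highest in 350W. Fitted log2 fold changes of the 5 were -0.52, -0.33, -0.79, -0.60 and -0.65, each smaller than that of Top1. The 8 sums share 4 plates, and a ranking by so few points is loose: by Spearman 1 of the 5 remained among the 5 highest, and after subtracting plate means 0 did. Top2b came 1532nd with 0.358 and Top2a 2741st with 0.098. Bach2 had 0.543, and 0.977 after subtracting plate means, which leaves the genotype difference that chose both genes.

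TOP1 is known for its part in the transcription of long genes, so fitted changes were set out by gene span, known for 6047 of the tested genes (92.4%). The 1451 genes over 100 kb had a median log2 fold change of -0.086, with 63.8% below 0, and the 4596 shorter genes had 0.023, with 46.8% below 0. The median was -0.073 over 50 kb and -0.082 over 200 kb. Plate by plate, the median difference of long genes was -0.028, -0.115, -0.080 and -0.071 in 350W to 353W, and that of shorter genes 0.005, 0.017, 0.023 and 0.047, so long genes stood lower in 4 of 4 plates. Long genes held 18.0%, 16.6%, 15.8% and 18.0% of the counts of tested genes with a known span in WT and 17.5%, 15.3%, 14.8% and 17.0% in KO cells. The median level of the tested genes was alike in the 2 classes, at 61.0 CPM for long and 61.6 CPM for shorter genes. The shift is small beside the change of Top1, whose own span is under 100 kb. Of the long genes 1 of 1451 was called, and of all genes with a known span 6 of 6047, which is a like share. KO cells were also shallower in 4 of 4 plates, and the part of depth, of well range or of Top1 in this shift was not tested.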

How the data were processed

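For each of the 4 plates the authors deposited raw MARS-Seq counts, whole numbers for every gene in every cell. The submitters' processing notes name the build GRCm38.p4 and FastQC, while for the aligner, the counter and its use of strand the sources used here give nothing. Cell names carry the genotype, and all columns were assigned to a plate. RefSeq gene places and promoters are of GRCm38.p6. The bulk RNA-seq, ChIP-seq and chromatin accessibility samples were not used here. The genes and lists were chosen with earlier results of these data known.

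Cells with at least 500 counts were kept, and doublets were not called. The 8 sums, 1 for each plate and genotype, were scaled to CPM and fitted for KO against WT by the quasi-likelihood test of edgeR 4.0.16 (R 4.3.3) after filterByExpr and TMM scaling, with the plate as a block and Benjamini-Hochberg adjustment over all genes tested. The plate pairs the samples: deviations of the 2 genotypes of a plate correlated at 0.551 to 0.652 over genes, and those of different plates at -0.054 at most. Each SE is the size of the log2 change over the root of its F value. Single values used exact Poisson, exact binomial (Clopper-Pearson) and exact conditional intervals at 95%, in Python 3.11.15 with scipy 1.17.1, and they cover counting error only. A count of 0 was read as allowing up to 3 counts. Symbols were known for 25714 of 25832 gene IDs.

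Named genes are the 5 chosen genes, up to 3 tested genes of highest mean CPM per list and any called, the 5 genes most like Top1 and the 3 highest wells per genotype; Supt16 and Supt4a were named after their values were seen. Alternatives were no block, DESeq2 1.42.0, other scalings, gene and cell filters, thinning, leaving out wells of over 100 immunoglobulin counts and leaving out each plate.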

Additional observations from a re-analysis of the deposited data

Results flagged for a closer look

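There were 2 values picked out because the highest of 4 plates lay far from the others, by a test that flags about 1 in 20 groups by chance; 24 groups were looked at. The share of WT cells with a Top2b count was 33.3% in 351W, where the other plates had 17.9 to 18.9%, and KO cells of 351W had 14.6%. The Top3a level of WT cells was 48.1 CPM in 350W, with 15 counts, against 15.2 to 15.7 CPM in the other plates, and KO cells of 350W had 9.02 CPM from 2 counts.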

How the results depend on the processing

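Of the 101 alternative values, 13 were fits of Top1, the only chosen gene that was called, and 0 of these 13 reversed its direction. The other values concern no call of a chosen gene, and among them Top2b, Top3a and Top3b changed sign when a plate was left out. The log2 fold change of Top1 stayed between -1.45 and -1.28 in 13 alternative fits but its call was lost in 8. Without the paired plates, that is with no replicate block, it was -1.38 (0 genes called, 86 at an unadjusted p under 0.05), with DESeq2 -1.35 (1 gene called, 63 unadjusted), with no filter on cells -1.34 (3 called) and without wells of over 100 immunoglobulin counts -1.33 (2 called). Leaving out a plate gave 2 to 12 genes called, 12 without 352W and 2 without 353W, against 6 with all plates, and no gene filter gave 26. Shares of cells with Top1 depend on depth: thinned to 1000 and 1500 counts they were 9.28% and 12.2% in WT and 2.84% and 4.56% in KO, lower in KO each time. Of the 5 genes most like Top1, 1 was kept by Spearman and 0 after subtracting plate means. Without 351W, the log2 value of Top2b was 0.11 and that of Top1mt -2.70, and without 350W that of Top3a was 0.34. The log2 value of Top3b was 0.04 with all plates. It was -0.02, -0.05, 0.41 and -0.15 without 350W, 351W, 352W and 353W. Top1mt, Top3a and Top3b were below the gene filter, so of their fits only that with no filter was run (-0.92, -0.31 and 0.12, with an SE of 1.14, 0.502 and 0.6), and pooled ratios were recomputed in their place. The causes were not tested. Depth limits every statement on these 3 genes, with 14 to 54 counts in all.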
